A study of Mus musculus with 6 samples.

Results

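The Toll-like receptors are the membrane receptors with which macrophages (Mφs) detect microbial molecules and nucleic acids. The 10 genes described here, Tlr1 to Tlr9 and Tlr13, were picked by symbol from a table of 41549 genes. The table came from wild type mouse bone marrow-derived Mφs, which the study grew from bone marrow of adult C57BL/6N mice with macrophage colony-stimulating factor, a factor that drives precursors into Mφs. Naive Mφs were transfected with a locked nucleic acid inhibitor, an antisense oligonucleotide, and then polarized with the cytokines IL-4 and IL-13 into M2, an anti-inflammatory state. In the αGlu group (3 libraries) the antisense was directed against 5′tRF-Glu(CTC), which is cut from the 5′ part of a tRNA for glutamate, and in the Ctr group (3 libraries) it was a control inhibitor. Both groups thus received transfection reagent, an inhibitor and both cytokines, and untransfected cells are not analysed here. The study says that replicates of its primary cells came from different animals. Whether a Ctr and an αGlu library shared a mouse is not stated in the sources used here. Polyadenylated RNA was sequenced from stranded libraries. The comparison of αGlu with Ctr asked whether receptor transcripts differ when the fragment is blocked.

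Toll-like receptors bind their ligand with an outer domain of leucine-rich repeats and signal through an inner TIR domain, which recruits adaptor proteins. Tlr1, Tlr2, Tlr4, Tlr5 and Tlr6 act mainly at the plasma membrane and recognize lipids and proteins of microbes. Tlr3, Tlr7, Tlr8, Tlr9 and Tlr13 act in endosomes and recognize nucleic acids, and most of them depend on the chaperone Unc93b1 to get there. The adaptor Myd88 serves nearly all of these receptors and leads to NF-κB, whereas Ticam1 serves Tlr3 and Tlr4 and leads to interferon.

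The antisense and the fragment it targets are shown because they define the groups. Capitals in the target mark the bases that pair with the antisense, which are bases 2 to 21, in the letters of the study's inhibitor list.
antisense: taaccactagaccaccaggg
target: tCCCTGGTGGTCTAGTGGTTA
Perfect complements of the antisense were searched in the annotated transcripts of the receptors. The longest run was 8 bases, in Tlr4, Tlr5 and Tlr9, and 28.3% of 55450 annotated genes held a run at least as long. In the other 7 receptors it was shorter than 8 bases.

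Total counts ranged from 17912831 to 30386653 per library. αGlu 1 stood apart from the other libraries of its group. On the first principal component of all tested genes, which held 76.7% of the variance, Ctr libraries lay between -50.5 and -35.8, αGlu 1 at -22.2, and αGlu 2 and αGlu 3 at 74.4 and 74.7. For this reason each receptor is given with and without αGlu 1. This library was singled out from the same data, as the αGlu library nearest to Ctr. Adjusted p values and calls without it are therefore descriptions of the other libraries and not valid tests. All 8 macrophage markers were expressed, with a summed level of 12169 to 13708 CPM (counts scaled to library size) in Ctr and of 12990, 16659 and 19206 CPM in αGlu 1, 2 and 3. The defining neutrophil marker Ly6g had no read, while the summed level of the 8 neutrophil markers was 107 to 160 CPM in Ctr and 186, 538 and 608 CPM in αGlu 1, 2 and 3, most of it from Csf3r. B cell markers summed to at most 0.817 CPM and conventional dendritic cell markers to at most 2.36 CPM, and Ighm and Xcr1 had no read. T and NK cell markers summed to 17.9 to 31.0 CPM, mostly Cd4, and fibroblast markers to 1.01 to 7.17 CPM. Plasmacytoid dendritic cell markers summed to 107 to 386 CPM, which was mostly Bst2, and Klk1 had no read. No sequencing batch or date is in the labels.

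Levels of different receptors can be compared only per transcript length, for which the deposited TPM values served, a unit that corrects for length and depth. In Ctr the transcripts of the endosomal receptors Tlr8, Tlr13 and Tlr7 were the most abundant. Tlr8 stood at 422 ± 15.1 TPM, Tlr13 at 307 ± 32.1 TPM and Tlr7 at 239 ± 64.9 TPM (SD, n = 3). The Ctr ranges of Tlr8 and Tlr13 were separate. Those of Tlr13 and Tlr7 overlapped, although Tlr13 was above Tlr7 within each Ctr library. The lipopolysaccharide receptor Tlr4 came next with 90.7 ± 4.42 TPM, followed by Tlr1 with 73.1 ± 2.93 TPM, and the ranges of these neighbours were separate. Tlr9 with 25.0 ± 4.95 TPM and Tlr6 with 24.6 ± 1.47 TPM could not be ordered, nor could Tlr2 with 15.9 ± 3.69 TPM and Tlr3 with 15.1 ± 4.89 TPM. Tlr5 had 0 TPM in all 3. In αGlu the mean order became Tlr8, Tlr7, Tlr13, Tlr4, Tlr1, Tlr2, Tlr9, Tlr6, Tlr3 and Tlr5. Neighbours in that order overlapped, except Tlr8 with Tlr7 and Tlr3 with Tlr5. The mean of αGlu 2 and αGlu 3 alone had this same order. αGlu 1 instead kept the Ctr order, with Tlr13 above Tlr7, except that Tlr3 came before Tlr2.

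**Figure D1:**
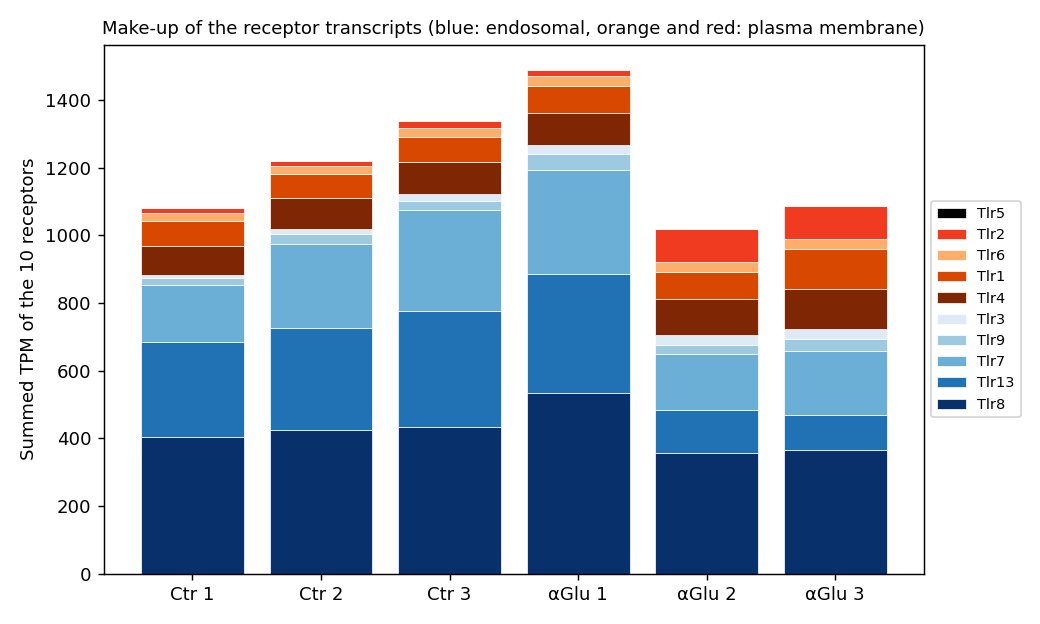
Stacked levels (TPM, vertical axis) of the 10 receptors in each of the 6 libraries, with endosomal receptors in blue and plasma membrane receptors in orange, red and brown. The endosomal receptors made up 81.7% to 85.1% of the summed level in Ctr and αGlu 1, and 69.1% and 66.6% in αGlu 2 and αGlu 3, where the Tlr13 segment was smaller and the Tlr2 segment larger.

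The summed level of the 10 receptors was 1081, 1219 and 1337 TPM in Ctr 1, 2 and 3, and 1489, 1020 and 1085 TPM in αGlu 1, 2 and 3. αGlu 1 was thus the highest of the 6 libraries, αGlu 2 the lowest, and αGlu 3 lay just above Ctr 1. The plasma membrane receptors took 18.3%, 16.4% and 16.1% of this sum in Ctr 1, 2 and 3. In αGlu 1 they took 14.9%, less than in any Ctr library. Their share was 30.9% in αGlu 2 and 33.4% in αGlu 3, more than in any Ctr library. The plasma membrane share thus lay just below the Ctr range in αGlu 1, by less than the Ctr libraries differed among themselves. In αGlu 2 and αGlu 3 it lay far above that range.

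**Figure D2:**
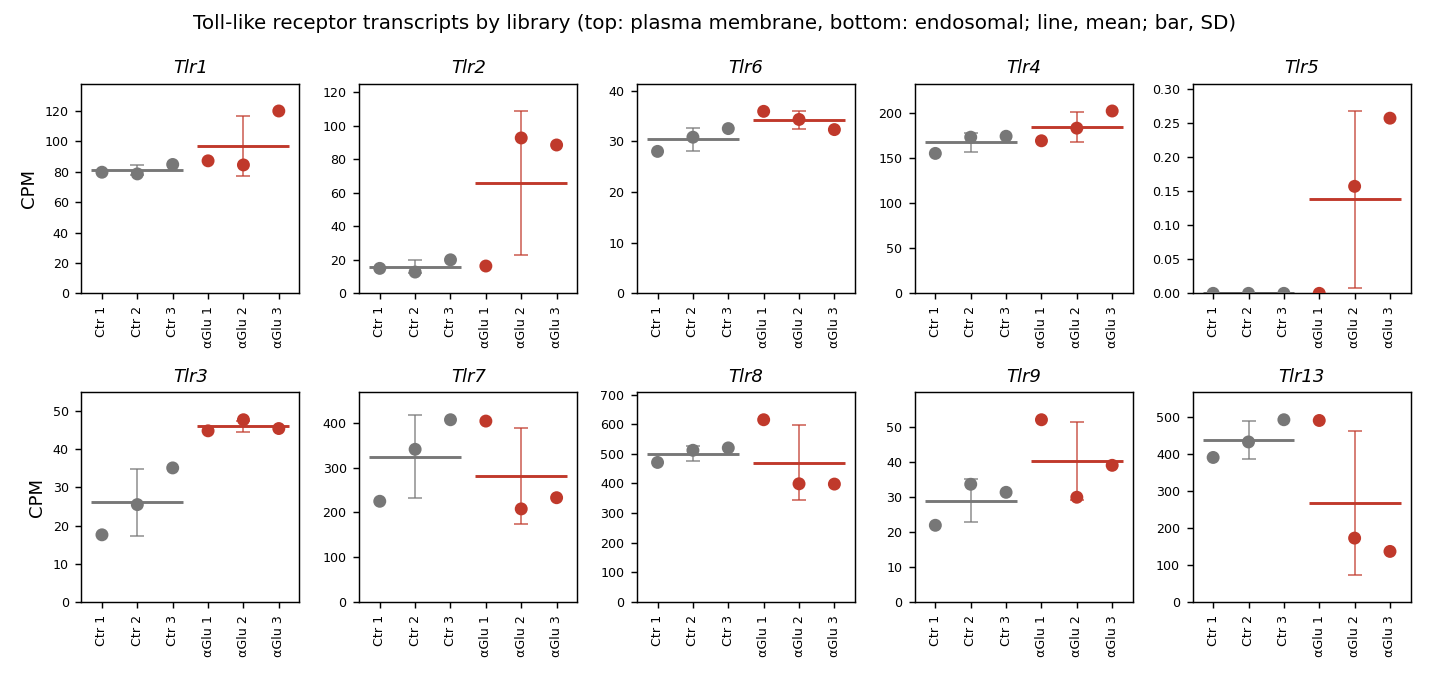
CPM (vertical axes, each from 0 with its own scale) of each receptor in each library (horizontal axes), with a point per library, a line for the group mean and a bar for the SD (n = 3). All αGlu points of Tlr3 lay above all of its Ctr points, and for Tlr2 and Tlr13 the point of αGlu 1 lay inside the Ctr range while αGlu 2 and αGlu 3 lay outside it on the same side.

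The receptors were read from a test over all genes. Of the 10 receptors 9 passed the filter on low counts, and Tlr5 did not. With edgeR's quasi-likelihood test on all 6 libraries, 0 of the 9 passed both limits used for a call, an adjusted p under 0.1 and a log2 fold change beyond 1 in either direction, against 0% of the 11933 genes tested. An unadjusted p under 0.05 was found for 2 of them, Tlr2 and Tlr3, against 24.7% of all genes. Limma-voom called 0, and DESeq2 and an edgeR likelihood-ratio test called 1 each, Tlr2. Of all genes, DESeq2 called 8.13% of 13742 and the likelihood-ratio test 7.53% of 11933. The median log2 fold change was 0.17 over the 9 receptors and 0.02 over all genes, with 6 receptors above 0 and 3 below. For 1 receptor, Tlr3, all αGlu libraries lay on the same side of all Ctr libraries, as they did for 30.2% of all genes. These are bulk libraries, in which fewer cells carrying a transcript and less transcript per cell cannot be told apart.

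Leaving out αGlu 1 changed the picture, but calls and adjusted p values without it are descriptive, since the data themselves pointed to this library. The quasi-likelihood test then called 2 of the 9, Tlr2 as higher and Tlr13 as lower in αGlu. Of the 12340 genes in that fit, 8.05% were called higher and 10.5% lower. Tlr3 and Tlr8 passed the limit on the adjusted p but not that on the fold, so 4 of 9 passed the former, as did 49.1% of all genes. Both remaining αGlu libraries lay above all Ctr libraries for Tlr2, Tlr3 and Tlr4 and below them for Tlr8 and Tlr13, which is 3 and 2 of the 9 receptors, against 33.6% and 32.2% of all genes. αGlu 1 itself lay inside the Ctr range for Tlr2, Tlr4, Tlr7 and Tlr13, and above it for Tlr1, Tlr3, Tlr6, Tlr8 and Tlr9. The share of all genes for which αGlu 1 lay outside the Ctr range was not computed. Its positions are therefore not read as particular to the receptors.

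**Figure D3:**
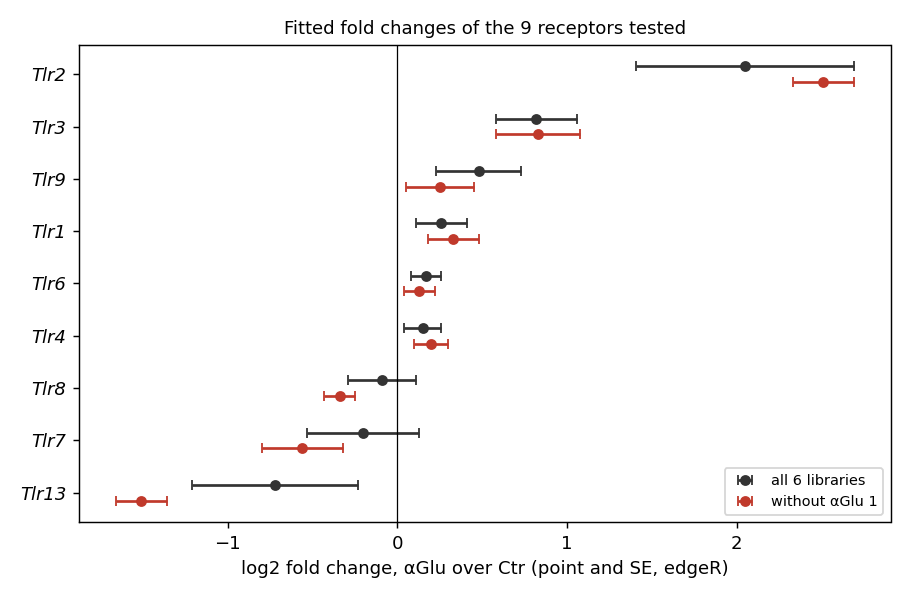
Log2 fold changes of αGlu over Ctr (horizontal axis; point, estimate; bar, SE) of the 9 tested receptors from edgeR's quasi-likelihood fit, with all 6 libraries in black and without αGlu 1 in red. Tlr2 stood highest at 2.05 and 2.51 and Tlr13 lowest at -0.72 and -1.51, and for both the SE was smaller without αGlu 1.

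Tlr2 (ENSMUSG00000027995, chr3:83836272-83841767, minus strand, GRCm38) recognizes bacterial lipopeptides as a partner of Tlr1 or Tlr6. It was measured at 14.94, 12.74 and 20.03 CPM in Ctr 1, 2 and 3, and at 16.33, 92.74 and 88.48 CPM in αGlu 1, 2 and 3. αGlu 2 and αGlu 3 were far above every other library, and αGlu 1 lay among the Ctr libraries. The log2 fold change on all libraries was 2.05 ± 0.64 (SE), at an adjusted p of 0.161 in edgeR's quasi-likelihood test, and 1.79% of all genes had a higher one. DESeq2 gave 2.04 ± 0.59 at an adjusted p of 0.0121, and the likelihood-ratio test an adjusted p of 0.0238. Without αGlu 1 the quasi-likelihood value was 2.51 ± 0.18 (adjusted p 0.000174), which is a 5.69-fold higher level in αGlu 2 and αGlu 3 than in Ctr. Among the macrophage and neutrophil marker sums, the 2 libraries with high Tlr2 were also the 2 highest. The part of these in the result was not tested.

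Part of the Tlr2 promoter is shown because this receptor had the highest fold change of the 9 tested. The stretch covers chr3:83841768-83841858 (GRCm38.p6, minus strand, RefSeq), which ends just before the first annotated exon, and capitals mark overlapping matches to the κB motif that NF-κB binds (GGG, any 5 bases, then CC).
Tlr2 promoter: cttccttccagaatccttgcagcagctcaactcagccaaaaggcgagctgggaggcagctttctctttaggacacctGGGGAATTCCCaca
Such a match, on either strand, was present in 50.8% of 32851 promoter windows of the same kind (250 bases before to 50 after a gene start), and in 4 of the 10 windows listed for 8 of the receptors, so its presence is a description only. Tlr4 and Tlr7 had no window.

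Tlr1 (ENSMUSG00000044827, chr5:64924679-64933563) and Tlr6 (ENSMUSG00000051498, chr5:64952031-64960097) are the partners of Tlr2 for triacylated and diacylated lipopeptides. They lie 18467 bases apart on the minus strand. Tlr1 stood at 79.7, 78.6 and 84.8 CPM in Ctr, compared with 87.2, 84.5 and 120 CPM in αGlu 1, 2 and 3. The groups overlapped only between Ctr 3 and αGlu 2, and αGlu 3 was highest. Its log2 fold change was 0.26 ± 0.15 (SE, edgeR adjusted p 0.303) and 0.33 ± 0.15 without αGlu 1 (adjusted p 0.126). Tlr6 stood at 28.0, 30.8 and 32.5 CPM in Ctr, compared with 35.9, 34.3 and 32.3 CPM in αGlu 1, 2 and 3, so that αGlu 3 fell among the Ctr libraries. Its log2 fold change was 0.17 ± 0.09 (SE, edgeR adjusted p 0.267) and 0.13 ± 0.09 without αGlu 1 (adjusted p 0.295). Neither partner approached the fold change of Tlr2 in αGlu 2 and αGlu 3. The TPM ratio of Tlr1 to Tlr6 was 2.84 to 3.17 in Ctr, 2.71 and 2.74 in αGlu 1 and αGlu 2, and 4.13 in αGlu 3.

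The values of Tlr1 and Tlr6 are uncertain because the genes share sequence. Of all stretches of 50 bases in their transcripts, 15.4% for Tlr1 and 12.3% for Tlr6 also occurred in another gene, mostly the other of this pair, and how the authors assigned such reads is not given in the sources used here. For the other receptors this share was at most 0.018%. The longest stretch common to both coding sequences had 229 bases and is shown because a read from it cannot be assigned. It lies at coding bases 1468 to 1696 of Tlr1 (chr5:64925537-64925765) and 1507 to 1735 of Tlr6 (chr5:64953828-64954056), in GRCm38 on the minus strand.
Tlr1 and Tlr6 shared coding stretch: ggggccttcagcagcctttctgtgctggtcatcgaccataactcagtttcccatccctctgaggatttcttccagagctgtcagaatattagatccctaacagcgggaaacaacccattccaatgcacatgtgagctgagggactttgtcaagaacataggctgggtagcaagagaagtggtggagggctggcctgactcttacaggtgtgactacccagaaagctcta

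Tlr4 (ENSMUSG00000039005, chr4:66827584-66930284, plus strand), the receptor for lipopolysaccharide, varied little between libraries. It was at 155, 173 and 174 CPM in Ctr, compared with 169, 183 and 202 CPM in αGlu 1, 2 and 3, with αGlu 1 inside the Ctr range and αGlu 2 and αGlu 3 above it. The log2 fold change was 0.15 ± 0.11 (SE, edgeR adjusted p 0.391) and 0.20 ± 0.10 without αGlu 1 (adjusted p 0.141). The TPM ratio of Tlr2 to Tlr4 was 0.136 to 0.212 in Ctr, 0.178 in αGlu 1, and 0.932 and 0.806 in αGlu 2 and αGlu 3. In these last libraries the transcript of the lipopeptide receptor thus came close to that of the lipopolysaccharide receptor.

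Tlr5 (ENSMUSG00000079164, chr1:182954788-182976044, plus strand), the flagellin receptor, was at the limit of detection. It had 0 reads in Ctr 1, 2 and 3 and 0, 5 and 7 reads in αGlu 1, 2 and 3. A count of 0 allows up to 0.0444 CPM over the Ctr group (3 counts) and up to 0.172 CPM in αGlu 1, which is more than the 0.157 CPM of αGlu 2. Over the whole group, αGlu reached 0.157 CPM from 12 reads, all of them in αGlu 2 and αGlu 3. That is 3.53 times the Ctr limit, a ratio that leaves out the counting error of these 12 reads. The limits cover counting error only. The filter kept Tlr5 out of the test, and with no filter on low counts edgeR's quasi-likelihood test did not call it (adjusted p 0.245).

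Among the endosomal receptors, Tlr3 (ENSMUSG00000031639, chr8:45395665-45411080, minus strand), which recognizes double-stranded RNA, was the only one higher in every αGlu library. It was measured at 17.6, 25.5 and 35.1 CPM in Ctr 1, 2 and 3, and at 44.8, 47.7 and 45.4 CPM in αGlu 1, 2 and 3. The αGlu libraries were close to each other (46.0 ± 1.50 CPM, SD, n = 3), and the spread lay within Ctr (26.1 ± 8.76 CPM). The log2 fold change was 0.82 ± 0.24 (SE) at an edgeR adjusted p of 0.16, and 7.01% of all genes had a higher one. DESeq2 gave 0.81 ± 0.27 with an adjusted p of 0.0342 (15.8% of all genes passed 0.1 in DESeq2), and the quasi-likelihood test without αGlu 1 gave 0.83 ± 0.25 with 0.0417, both under the fold limit. Ctr 1 was the lowest library for Tlr3, and without it the log2 fold change was 0.61 ± 0.15 (edgeR adjusted p 0.351), still with no overlap. The same library was lowest for several cytosolic nucleic acid sensors. Zbp1 was at 29.8 CPM in Ctr 1 and at 139 to 241 CPM in the others, and Ddx58, the RNA helicase RIG-I, chosen after its values were seen, was at 83.3 CPM against 206 to 263 CPM. An antisense gene, Gm45542, overlaps 569 exonic bases of Tlr3 and had at most 1 read.

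Tlr7 (ENSMUSG00000044583, chrX:167304929-167330558) is a receptor for single-stranded RNA and its breakdown products. It lies 40599 bases from Tlr8 (ENSMUSG00000040522, chrX:167242696-167264329), both on the minus strand of the X chromosome. Tlr7 was at 225, 341 and 407 CPM in Ctr 1, 2 and 3 and at 404, 208 and 233 CPM in αGlu 1, 2 and 3. Ctr 1, αGlu 2 and αGlu 3 were the low libraries, so the groups overlapped widely. Its log2 fold change was -0.20 ± 0.33 (SE, edgeR adjusted p 0.706), and -0.56 ± 0.24 without αGlu 1 (adjusted p 0.112). Tlr8 was at 471, 512 and 520 CPM in Ctr, compared with 615, 399 and 398 CPM in αGlu 1, 2 and 3. αGlu 1 was the highest of all libraries and αGlu 2 and αGlu 3 the lowest. Its log2 fold change was -0.09 ± 0.20 (SE, edgeR adjusted p 0.784), a sign that turned to 0.02 without αGlu 2 or without αGlu 3. Without αGlu 1 it was -0.34 ± 0.09 (adjusted p 0.0265), or 79.2% of the Ctr level. The TPM ratio of Tlr7 to Tlr8 varied from 0.419 to 0.687 in Ctr and from 0.458 to 0.576 in αGlu.

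Tlr9 (ENSMUSG00000045322, chr9:106222598-106226883, plus strand), the receptor for unmethylated CpG DNA, stood at 21.9, 33.6 and 31.3 CPM in Ctr, compared with 52.0, 29.9 and 39.0 CPM in αGlu 1, 2 and 3. αGlu 1 was highest and αGlu 2 lay inside the Ctr range. The log2 fold change was 0.48 ± 0.25 (SE, edgeR adjusted p 0.272) and 0.25 ± 0.20 without αGlu 1 (adjusted p 0.37). The value was thus smaller without the library that stood apart.

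Tlr13 (ENSMUSG00000033777, chrX:106143204-106160493, plus strand), which recognizes a sequence in bacterial ribosomal RNA, was at 391, 433 and 493 CPM in Ctr 1, 2 and 3, and at 491, 173 and 137 CPM in αGlu 1, 2 and 3. αGlu 1 lay inside the Ctr range, near its top, and αGlu 2 and αGlu 3 were far below it. On all libraries the log2 fold change was -0.72 ± 0.49 (SE, edgeR adjusted p 0.373), and 9.92% of all genes had a lower one. Without αGlu 1 it was -1.51 ± 0.15 (adjusted p 0.000693), so that the level in αGlu 2 and αGlu 3 was 35.2% of that in Ctr. DESeq2 and the likelihood-ratio test on all libraries did not call it. The TPM ratio of Tlr13 to Tlr8 was 0.690, 0.705 and 0.789 in Ctr 1, 2 and 3 and 0.664 in αGlu 1, compared with 0.362 and 0.286 in αGlu 2 and αGlu 3. Tlr13 was thus also low in αGlu 2 and αGlu 3 relative to another endosomal receptor.

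The promoter of Tlr13 is given as the counterpart of the Tlr2 stretch, since this receptor had the lowest fold change of the 9 tested. It covers chrX:106143025-106143203 (GRCm38.p6, plus strand, RefSeq), up to the first annotated exon, and carries no capitals because its window held none of the letters searched.
Tlr13 promoter: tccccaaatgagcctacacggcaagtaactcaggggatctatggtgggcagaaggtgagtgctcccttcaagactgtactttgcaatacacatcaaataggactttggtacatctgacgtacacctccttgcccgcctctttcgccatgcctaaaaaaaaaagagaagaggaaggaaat
Besides the κB motif these were GAGGAAGT (PU.1, in 3.2% of all windows and in those of Tlr1 and Tlr9), TGANTCA (AP-1, in 7.81% and in that of Tlr9), the interferon-stimulated response element (GAAA, any 2 bases, GAAA, in 3.44% and in that of Tlr6), a STAT6 motif (TTC, any 4 bases, GAA, in 6.95% and in that of Tlr8) and CACGTG (E-box, in 7.15% and in that of Tlr1). Both strands were searched.

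The other genes of the pathway were taken from 7 lists with 61 genes, of which 58 were tested. On all 6 libraries 0 were called, 15 were higher and 6 lower with no overlap between the groups, against 14.2% and 15.9% of all genes. Without αGlu 1 the quasi-likelihood test called 4 higher and 6 lower, against 8.05% and 10.5% of all genes. DESeq2 on all libraries called 4 higher and 1 lower, against 4.21% and 3.92% of all genes. Of the other mouse receptors of the family, Tlr12 did not pass the low-count filter, and Tlr11 was at 0.726 to 1.58 CPM in Ctr, compared with 1.49, 0.157 and 0.257 CPM in αGlu 1, 2 and 3. The log2 fold change of Tlr11 was -0.86 ± 0.86 (SE, edgeR adjusted p 0.538), and it was called lower without αGlu 1 (-2.37, adjusted p 0.0143).

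**Figure D4:**
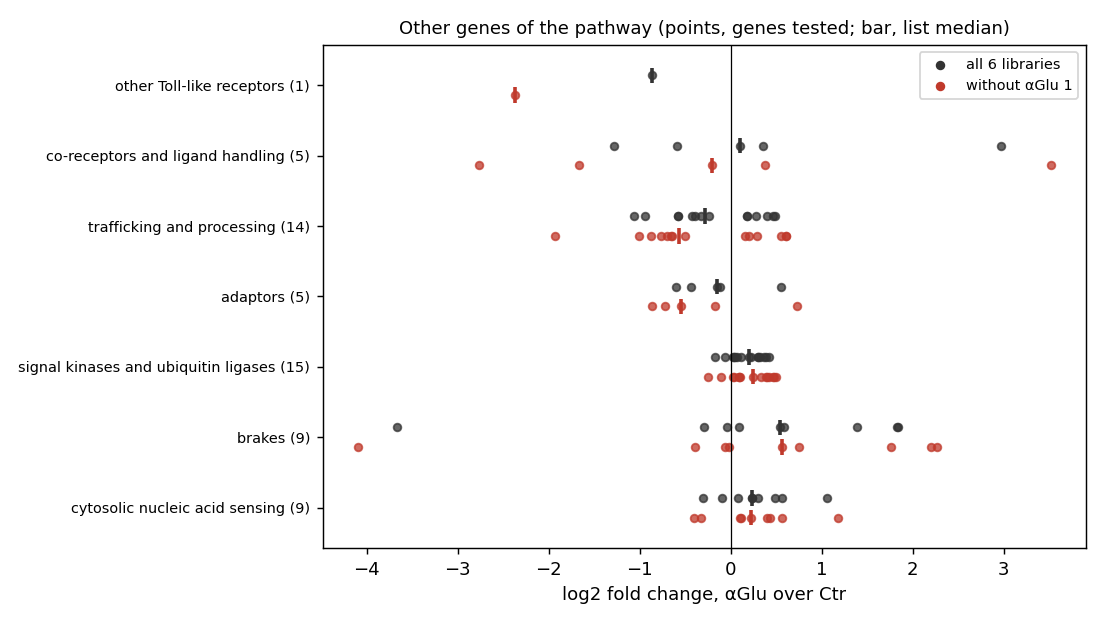
Log2 fold changes of αGlu over Ctr (horizontal axis) of the 58 tested pathway genes in 7 lists (rows, with the number tested in brackets), a point per gene and a bar for the median, with all 6 libraries in black and without αGlu 1 in red. The widest spread was among co-receptors, from -1.28 to 2.97 with all libraries, and among brakes, from -3.67 to 1.84, whereas the kinases and ubiquitin ligases lay between -0.17 and 0.42.

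For co-receptors and ligand-handling proteins the median over 5 tested genes was a log2 fold change of 0.10, and of -0.20 without αGlu 1. Cd14, which hands lipopolysaccharide and lipopeptides to Tlr4 and Tlr2, was the highest. Ctr libraries had 22.1, 30.1 and 17.2 CPM of it, and αGlu 1, 2 and 3 had 12.4, 293 and 240 CPM. Its log2 fold change was 2.97 ± 1.03 (SE, edgeR adjusted p 0.174). αGlu 1 was below all Ctr libraries for Cd14, and αGlu 2 and αGlu 3 were far above them. DESeq2 called it (2.96, adjusted p 0.0564), as did the quasi-likelihood test without αGlu 1 (3.52, adjusted p 0.000138). Cd36, a scavenger receptor that assists Tlr2, was the lowest, with 2332 to 2895 CPM in Ctr and 2411, 453 and 300 CPM in αGlu 1, 2 and 3 (-1.28 ± 0.79, SE, edgeR adjusted p 0.334). It was called lower without αGlu 1 (-2.77, adjusted p 0.000261). Cd180, a Tlr4-related surface protein chosen after its values were seen, was the other gene of the list called lower without αGlu 1 (-1.67, adjusted p 0.00242).

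The chaperones, proteases and nucleases that carry or process endosomal receptors and their ligands had a median of -0.28 over 14 genes and of -0.57 without αGlu 1. Here 3 genes were higher and 2 lower in every αGlu library, against 14.2% and 15.9% of all genes. Lgmn, the protease legumain, stood highest with 1556 to 2180 CPM in Ctr and 2425 to 2980 CPM in αGlu (0.49 ± 0.20, SE, edgeR adjusted p 0.197). Pld3, a lysosomal nuclease that degrades single-stranded nucleic acids, stood lowest with 1876 to 2135 CPM in Ctr and 1831, 580 and 471 CPM in αGlu 1, 2 and 3 (-1.06 ± 0.54, SE, edgeR adjusted p 0.262). Without αGlu 1 it was called lower (-1.93, adjusted p 0.000166), together with Slc15a4 (-1.01, adjusted p 0.000208), an endosomal transporter chosen after its values were seen. Unc93b1, also named after its values were seen, was at 905 to 959 CPM in Ctr, compared with 928, 639 and 691 CPM in αGlu 1, 2 and 3.

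Adaptors had a median of -0.15 over 5 tested genes and of -0.54 without αGlu 1. The list spanned Myd88, at 58.2 to 77.4 CPM in Ctr and 74.3, 110 and 118 CPM in αGlu 1, 2 and 3 (0.55 ± 0.20, SE, edgeR adjusted p 0.181), and Ticam1, at 49.6 to 58.0 CPM in Ctr and 46.7, 31.3 and 26.9 CPM in αGlu 1, 2 and 3 (-0.60 ± 0.21, SE, edgeR adjusted p 0.176). Ticam1 was lower in every αGlu library, and for Myd88 αGlu 1 lay inside the Ctr range. Without αGlu 1 both passed the limit on the adjusted p but not that on the fold (0.73 and 0.00564 for Myd88, -0.86 and 0.00144 for Ticam1, log2 fold change and edgeR adjusted p). The 15 signal kinases and ubiquitin ligases had a median of 0.20, with 5 of them higher and 0 lower in every αGlu library, against 14.2% and 15.9% of all genes. Ikbke, a kinase of the interferon branch, was the highest, at 134 to 144 CPM in Ctr and 169, 182 and 209 CPM in αGlu (0.42 ± 0.11, SE, edgeR adjusted p 0.156). Irak1, a kinase that acts just after Myd88, was the lowest with -0.17 ± 0.10 (SE, edgeR adjusted p 0.335).

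Genes that restrain the pathway had a median of 0.54 over 9 genes. Irak3, a kinase-like protein that blocks signalling after Myd88, was measured at 17.2 to 18.5 CPM in Ctr, compared with 18.2, 81.0 and 91.6 CPM in αGlu 1, 2 and 3, so that αGlu 1 again lay inside the Ctr range (1.84 ± 0.57, SE, edgeR adjusted p 0.161). DESeq2 called it higher (1.83, adjusted p 0.0141). Il1rl1, the IL-33 receptor, was the lowest, at 2.55 to 7.54 CPM in Ctr, compared with 0.573, 0.283 and 0.220 CPM in αGlu 1, 2 and 3 (-3.67 ± 0.60, SE, edgeR adjusted p 0.149), and DESeq2 called it lower (-3.68, adjusted p 2.35e-06). All αGlu libraries were below Ctr for Il1rl1, αGlu 1 included. Socs1 and Tnfaip3, inhibitors chosen after their values were seen, were the other genes that DESeq2 called higher (1.82, adjusted p 0.00258, and 1.38, adjusted p 0.0321). Of the 9 genes, DESeq2 thus called 3 higher and 1 lower, against 4.21% and 3.92% of all genes. The same 4 genes were called without αGlu 1, against 8.05% called higher and 10.5% called lower of all genes. That fit reuses the same libraries, so it is no second test. With no overlap, 2 of the 9 were higher and 2 lower in every αGlu library, against 14.2% and 15.9% of all genes. Sensors of nucleic acids in the cytosol had a median of 0.24 over 9 genes, with 4 higher and 1 lower in every αGlu library, against 14.2% and 15.9% of all genes. None of the 9 was called by the quasi-likelihood test with αGlu 1 (0% of all genes) or without it (8.05% higher and 10.5% lower). Zbp1 was the highest (1.06 ± 0.56, SE, edgeR adjusted p 0.276) and the adaptor Mavs the lowest (-0.30 ± 0.10, adjusted p 0.171).

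The genes most like each receptor across the 6 libraries were sought among 8391 genes by the Pearson r of log2 CPM. With 6 libraries that share 2 conditions and the stand-apart αGlu 1, high values are common, so these are descriptions. Tlr2 was nearest to Ing1 (r = 0.9990) and Nfkbia (0.9985), and 635 genes had an r above 0.95 with it. Tlr13 was nearest to Adap1 (0.9978) and Id2 (0.9959), with 513 genes above 0.95. For Tlr8 the nearest were Lrig2 (0.9978) and Naip5 (0.9954), and for Tlr7 Mapk9 (0.9937) and Pld4 (0.9866). Tlr4 was nearest to Dnajc27 (0.9936) and Rgs19 (0.9930), Tlr3 to Dbndd2 (0.9928) and Cir1 (0.9925), and Tlr1 to Vrk1 (0.9927) and Pomt1 (0.9910). Tlr6 had Plaat3 (0.9877) and Mob1b (0.9820) as its nearest genes, and Tlr9 had Mfsd8 (0.9841) and Rab8b (0.9611). Between 6 genes, for Tlr9, and 91 genes, for Tlr3, passed 0.95 for these 7 receptors. None of the 9 receptors was among the nearest genes of another.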

How the data were processed

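The authors ran their reads through the RNA-seq Analysis Portal of QIAGEN and deposited 1 table. The build was GRCm38 per the submitters' processing notes, and the aligner is not given in the sources used here. Counts were deposited as raw reads per gene, and the deposited TPM values are scaled by length and depth. The deposited RPKM and CPM columns were not used here. The counts were filtered by edgeR 4.0.16 with its function filterByExpr (at least 10 counts, and 15 in all), scaled by trimmed mean of M-values (TMM) factors, which lay between 0.951 and 1.07, and fitted in R 4.3.3 with the group as the only term. Tests were two-sided quasi-likelihood tests with Benjamini-Hochberg adjustment over all genes. A call required an adjusted p under 0.1 together with a log2 fold change beyond 1 in either direction. The SE given for edgeR was computed back from the log2 fold change and the F statistic of the test. For DESeq2 it is the SE that the program reports. Shares of all genes that were called are over the genes with an adjusted p in the fit named. These were 11933 for edgeR on all 6 libraries, 12340 without αGlu 1 and 13742 for DESeq2. Shares on overlap of the groups are over the 11933 genes. CPM are counts over TMM-adjusted library sizes, and log2 CPM had a prior count of 2. No pair of replicates agreed within sampling noise, with a chi-square statistic per gene of at least 19.8. The models were tested on simulated data, in which each gene varied independently and no library stood apart as a whole. That test therefore cannot show how the models behave with a library like αGlu 1, and no result here rests on it. Genes outside the 10 receptors were named as the highest and lowest fold change of each pathway list and as the 2 genes nearest to each receptor in Pearson r (mean log2 CPM of at least 3, gene models left out), cell type markers as the most abundant or unread of their list, the gene overlapping Tlr3 from the annotation, and further pathway genes are marked as chosen from their values. The receptors, the lists and the rules were chosen with earlier results of these data known. Loci and transcripts were read from GENCODE release M21 and promoters from RefSeq. Alternatives were DESeq2 1.42.0 (size factors by median ratios), limma-voom 3.58.1, an edgeR likelihood-ratio test, other size factors, filters and thresholds, the replicate number as a block, and each library left out in turn.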

Additional observations from a re-analysis of the deposited data

How the results depend on the processing

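The number of called genes, 0 in edgeR's quasi-likelihood test, was 1117 with DESeq2, 899 with the likelihood-ratio test and 17 with the replicate number as a block, and leaving out 1 library gave 0 to 2290, with 2290 only without αGlu 1. The number of called receptors was 1 with DESeq2, 1 with the likelihood-ratio test and 0 to 2 with 1 library left out, with 2 only without αGlu 1. Receptors whose groups did not overlap numbered 1 of 9 with TMM, 3 with library size alone (Tlr1, Tlr3 and Tlr6) and 1 to 5 with 1 library left out, compared with 3599, 3688 and 3997 to 7851 of all 11933 genes. The cause was not tested. Of 135 fitted fold changes of the 9 receptors under 15 alternatives each, 129 kept their direction and their side of the threshold. The threshold was passed by 4 (Tlr2 under 3 alternatives and Tlr13 without αGlu 1). A change of sign was seen for 2, both of Tlr8, whose log2 fold change ran from -0.34 without αGlu 1 to 0.02 without αGlu 2 and without αGlu 3. These are refits of the same libraries, and small fold changes would stay under the threshold in most of them. The count of 129 is therefore no measure of stability. Log2 fold changes ran from -0.56 to -0.01 for Tlr7 and from -1.51 to -0.40 for Tlr13. The labels number the libraries 1 to 3 in both groups. When the group mean was removed, libraries with the same number had correlations of 0.076, 0.065 and 0.154 and those with different numbers of -0.112 to 0.046. Every same-number value was thus above every different-number value. All were small, and 3 libraries per group cannot decide whether the numbers mark pairs. The quasi-likelihood fit above took no pairs, and the block on the replicate number is the alternative if they do. With the replicate block 0 receptors were called, and the log2 fold change was 1.76 for Tlr2 (adjusted p 0.209), 0.87 for Tlr3 (adjusted p 0.165) and -0.96 for Tlr13 (adjusted p 0.301). Depth limits Tlr5, for which 0 reads allow up to 0.172 CPM in the shallowest library.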
